A study of Mus musculus with 10 samples.

Results

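The genes described here are Dpyd and 9 other enzymes of pyrimidine metabolism, Dpys, Upb1, Upp1, Tymp, Cda, Uck1, Uck2, Dhodh and Umps. They were measured in the adult mouse hippocampus, in a conditional knockout of Map3k12, the gene of the kinase DLK, and in wild type. Dpyd was chosen because it had the smallest unadjusted p of the genotype comparison after the deleted gene itself, and the others because they act in the same pathways. Their probes were taken as all those whose RefSeq transcript belongs to 1 of the 10 genes. That gave 13 of the 39429 probes on the array, of which 12 passed the filter on dim spots, and all 10 genes were tested among 23574 features.

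The study compared 5 conditional knockout (cKO) mice, in which Map3k12 was targeted, with 5 mice wild type (WT) for that gene. Map3k12 encodes DLK, a dual leucine zipper kinase that acts above the JNK kinases. All 10 mice, WT included, had eaten a tamoxifen diet for 3 weeks before the hippocampus was dissected. Each hippocampal RNA was labelled with Cy5 and hybridised on its own 2-colour Agilent array against Cy3-labelled Universal mouse reference, a commercial RNA pool. The sources used here do not give the recombinase and the cells it acts in, the deleted exons, or the sex, strain and exact age of the mice.

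Pyrimidines are made from small precursors through dihydroorotate and orotate to UMP, recovered from nucleosides by salvage kinases, and broken down to beta-alanine and beta-aminoisobutyrate. Dihydropyrimidine dehydrogenase, the product of Dpyd, reduces uracil and thymine and starts the breakdown. It is also the enzyme that inactivates the drug 5-fluorouracil. The brain is known to rely largely on salvage of uridine and cytidine for its pyrimidine nucleotides.

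Median Cy5 signals of the 10 arrays were 146 to 202, where the median background was 29 to 31. Log ratios correlated between arrays at 0.980 to 0.996. Map3k12, the targeted gene, had log2 ratios of 0.11 to 0.68 on the cKO arrays and of 1.74 to 2.15 on the WT arrays. It fell by 1.415 on the log2 scale (limma adjusted p = 0.000975), and its genotypes did not overlap. Its Cy5 signal was still well above background on 5 of 5 cKO arrays, and the arrays do not measure DLK protein. The spot on the array of cKO replicate 2 had a Cy3 signal of 314, against 102.5 to 128 on the other 9 arrays, and that mouse had the lowest ratio. A list of 6 genes of excitatory hippocampal neurons lay well above the reference in both genotypes, with list means of 3.35 to 3.69 in cKO and 3.32 to 3.68 in WT samples. The first of the 3 slides carried 4 cKO arrays, slide 2 carried 1 cKO and 3 WT arrays, and slide 3 carried 2 WT arrays. Slide and genotype are thus largely confounded, and the comparison within a slide rests on 1 cKO mouse.

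Values below are log2 ratios of Cy5 over Cy3 for 1 probe, differences are cKO minus WT, and n is 5 arrays per genotype. A ratio above 0 means more signal from hippocampus than from the reference pool. The level of any ratio also holds the dye effect, which is shared by all arrays because no dyes were swapped. RNA came from dissected tissue, so fewer cells of a type and less RNA per cell cannot be told apart.

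Dpyd had lower log2 ratios on the 5 cKO arrays than on the 5 WT arrays. The log2 ratio of its only probe, A_51_P473259 for transcript NM_170778, was 1.72, 1.33, 1.25, 1.76 and 1.51 in cKO replicates 1 to 5, against 2.01, 2.38, 2.20, 1.98 and 2.36 in WT replicates 1 to 5. All 5 cKO values lay below all 5 WT values, and all 10 lay above the reference pool. The means were 1.51 ± 0.23 in cKO and 2.19 ± 0.19 in WT samples (SD, n = 5 each).

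The fitted difference was −0.67 (SE 0.12), so the cKO ratio was 62.8% of that in WT (95% interval 52.8% to 74.8%). Its unadjusted p in limma was 7.69e-05. This p chose the gene, so the p, the difference and its interval are given as a description, not as a test. Choice by a small p favours a large difference, and the interval does not allow for that choice. The adjusted p over all features was 0.789. The next feature in the order of p, which has no gene symbol, had a p of 1e-04 and a difference of −0.30, and Slc52a3, a riboflavin transporter gene, followed with 0.000321 and 0.31. Dpyd was thus second by p and had the fourth most negative difference of 23574 features.

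The hippocampal channel carried the Dpyd difference. Cy5 signals of the spot were 254, 218, 214, 328 and 192.5 in cKO replicates 1 to 5, against 358, 513, 394, 401 and 505 in WT replicates 1 to 5. The genotypes did not overlap in this channel either, and the spot was well above background on all 10 arrays. After background subtraction the Cy5 signal averaged 211.1 in cKO and 407.4 in WT samples, so cKO was at 51.8% of WT. Cy3 signals of the reference were 51 to 63 on the cKO arrays and 54 to 63 on the WT arrays, and they overlapped. The reference spot was dim, with Cy3 well above background on 1 cKO and 2 WT arrays. The offset added to both channels pulls ratios of such spots towards 0. With the Cy5 channel alone, the difference was −0.74 (SE 0.10).

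**Figure D1:**
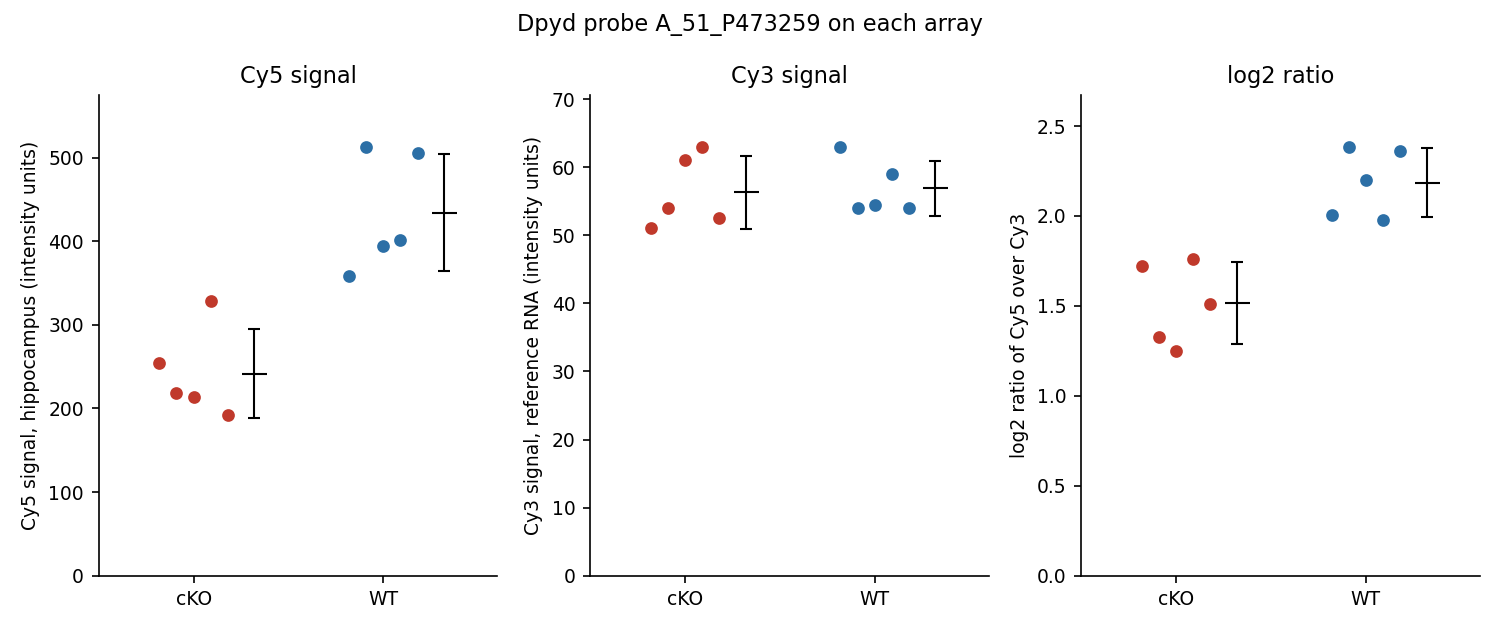
Signals of the Dpyd probe on each array: Cy5 signal of the hippocampal sample (left, intensity units), Cy3 signal of the reference pool (middle, intensity units) and their log2 ratio (right), for 5 cKO arrays (red) and 5 WT arrays (blue). Points are arrays and bars are mean ± SD; Cy5 lay between 192.5 and 328 in cKO and between 358 and 513 in WT samples, while Cy3 overlapped.

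Slide 2 held both genotypes, but its arrays are among those that chose Dpyd. Since no cKO value overlapped the WT values, a lower cKO value there was given in advance. On slide 2 the cKO array had a log2 ratio of 1.33 and the WT arrays had ratios of 1.98 to 2.38. With slide as a block the difference was −0.79 (SE 0.21), which rests on that 1 cKO mouse. The 4 cKO arrays of slide 1 averaged 1.56 and the 2 WT arrays of slide 3 averaged 2.28. Leaving out each mouse in turn gave −0.73 to −0.60. The value moved most when spots marked as non-uniform by the scanner software were kept in the background fit, to −0.42 (SE 0.21, limma unadjusted p = 0.0661). Values of marked spots were still left out of the probe averages in that setting.

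**Figure D2:**
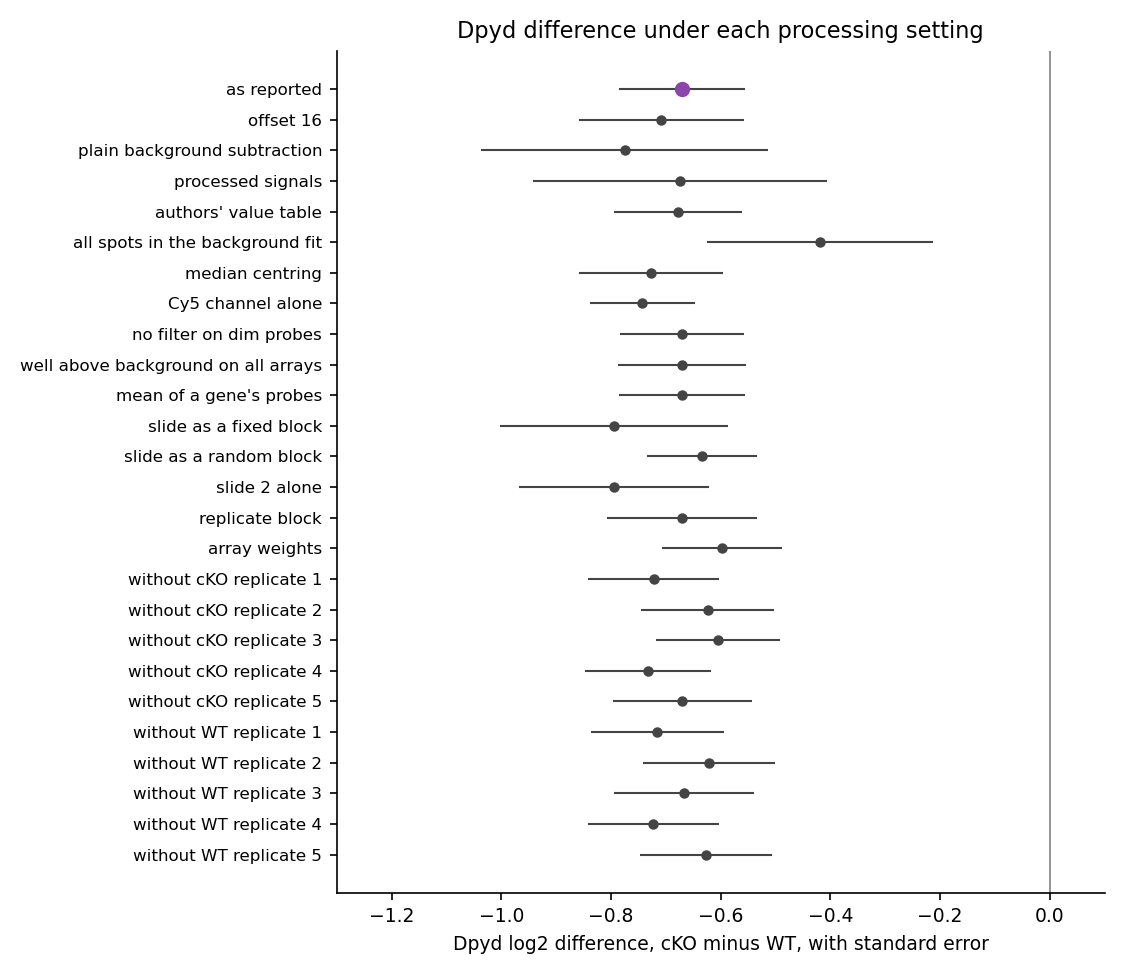
Dpyd log2 difference, cKO minus WT (horizontal axis), with its standard error, as reported (purple) and under 25 other settings (grey rows). Every value was below 0, from −0.79 with slide as a block to −0.42 when spots marked non-uniform were kept in the background fit. The settings reuse the arrays that chose Dpyd, so the sign was largely given in advance.

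The stretch upstream of the Dpyd start is shown beside that of Rwdd3, a neighbouring gene on chromosome 3 whose log ratios followed those of Dpyd over the 10 arrays, as described further on. Both are the 250 bases before the RefSeq start in build GRCm38.p6, written 5′ to 3′ on the gene's strand, chr3:118561930-118562179 on the plus strand for Dpyd and chr3:121171696-121171945 on the minus strand for Rwdd3. Capitals mark GC boxes, the letters GGGCGG or CCGCCC.
Dpyd: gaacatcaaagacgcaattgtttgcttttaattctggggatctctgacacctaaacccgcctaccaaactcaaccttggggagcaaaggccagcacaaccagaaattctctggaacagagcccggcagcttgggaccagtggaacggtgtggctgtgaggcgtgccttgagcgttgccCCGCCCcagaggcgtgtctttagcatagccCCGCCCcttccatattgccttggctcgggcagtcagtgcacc
Rwdd3: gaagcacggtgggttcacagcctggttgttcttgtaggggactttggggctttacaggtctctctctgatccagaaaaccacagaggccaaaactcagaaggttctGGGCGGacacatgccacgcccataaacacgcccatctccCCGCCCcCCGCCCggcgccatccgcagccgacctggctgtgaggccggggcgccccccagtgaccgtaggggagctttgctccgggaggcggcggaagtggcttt
Dpyd had 2 GC boxes, which began 72 and 42 bases before the start, and Rwdd3 had 3. Of 32851 such windows of all genes, 32.7% held at least 1 GC box and 8.5% held more than Dpyd. Neither window held the AP-1 letters TGANTCA (6.7% of all windows on either strand), the CRE letters TGACGTCA (1.5%), TATAAA (12.4%) or CCAAT (33.8%), searched on both strands. AP-1 and CRE are sites of the Jun and ATF factors that act downstream of JNK. Windows were present for 8 of the 10 member genes, 11 windows in all, and Upp1 was the only one of these 8 genes with TGANTCA. Such matches describe letters in the window and do not show binding.

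The enzymes of the breakdown that follow Dpyd had overlapping genotypes and differences of either sign. Dpys encodes dihydropyrimidinase, which opens the ring of the dihydropyrimidines that Dpyd makes, and had a pair of probes. Probe A_51_P244950, for transcript NM_001164466, had log2 ratios of −0.05, 0.39, 0.31, 0.22 and 0.86 in cKO replicates 1 to 5, against 0.23, 0.16, −0.18, 0.07 and 0.03 in WT replicates 1 to 5. In 3 of 5 cKO mice the value was above all WT values, and cKO replicate 5 was the highest. The difference was 0.28 (SE 0.14), and the Cy5 signals were low, at 62 to 117 in cKO and 62.5 to 68.5 in WT samples. The Cy3 signals of the reference were dim too, at 54 to 59.5 on cKO and 58.5 to 66 on WT arrays. On 4 of 5 cKO arrays Cy3 lay below all WT values, so the reference channel also enters this difference.

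The other Dpys probe, A_55_P1952628 for transcript NM_022722, was nearer to background. Its Cy5 was well above background on 3 of 5 cKO and 3 of 5 WT arrays. Cy5 signals were 52 to 70.5 in cKO and 51 to 63 in WT samples. Its bright Cy3 reference made it the brighter of the pair on average, and it therefore stood for the gene. Its log2 ratios were −2.45 to −2.25 in cKO and −2.52 to −2.29 in WT samples, and the difference was 0.08 (SE 0.06). It was 0.24 with plain background subtraction and −0.16 when non-uniform spots were kept in the background fit, so its sign depended on the processing.

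Upb1 encodes beta-ureidopropionase, which releases beta-alanine at the end of the pathway. Its log2 ratios were 0.33, 0.37, 0.66, 0.36 and 0.59 in cKO replicates 1 to 5, against 0.92, 0.22, 0.42, 0.46 and −0.01 in WT replicates 1 to 5. Both channels were dim, with Cy5 at 93.5 to 128 in cKO and 83 to 140 in WT samples. Cy3 was at 57 to 71 on cKO and 56 to 75 on WT arrays, so the spread of the ratios may be technical in part. The WT mice spanned the whole cKO range, and the difference was 0.06 (SE 0.14). It was −0.04 without WT replicate 5 and 0.19 without WT replicate 1. Of the aminotransferases that act on the end products, Agxt2 differed by −0.02 (SE 0.07) and Abat, better known as the GABA transaminase, by 0.12 (SE 0.06).

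Salvage enzymes showed small differences in both directions. Uridine phosphorylase, encoded by Upp1, splits uridine into uracil and ribose phosphate. Its probe A_55_P1988368 had log2 ratios of −0.76, −0.73, −0.34, −0.68 and −0.08 in cKO replicates 1 to 5, against −0.40, −0.20, −0.29, −0.51 and −0.82 in WT replicates 1 to 5. It was among the members with the widest spread (SD 0.30 in cKO and 0.24 in WT samples), and the difference was −0.07 (SE 0.14). On slide 2, where the single cKO mouse had −0.73 and the WT mice had −0.51 to −0.20, the difference was −0.36. The other Upp1 probe, A_51_P302738, was well above background on 0 of 10 arrays, with Cy5 signals of 35.5 to 53 in cKO and 34.5 to 56 in WT samples.

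Tymp encodes thymidine phosphorylase, which splits thymidine, and was the member whose genotypes were closest. Its log2 ratios were 0.03 to 0.24 in cKO and 0.03 to 0.24 in WT samples, with Cy5 signals of 1097 to 1856 in cKO and 1340 to 1799 in WT samples. The difference was 0.00 (0.0049, SE 0.060), with a 95% interval of −0.13 to 0.14.

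Cda encodes cytidine deaminase, which turns cytidine into uridine. Its hippocampal signal was low beside that of the reference pool, with Cy5 at 84 to 113 in cKO and 82.5 to 127 in WT samples and Cy3 at 591 to 692 in cKO and 572 to 647 in WT samples. Log2 ratios were −2.66 to −2.38 in cKO and −2.76 to −2.46 in WT samples, and the difference was 0.04 (SE 0.08).

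The uridine-cytidine kinases Uck1 and Uck2 carry out the first phosphorylation of salvaged uridine and cytidine. Uck1 lay above the reference on all arrays, with log2 ratios of 0.56, 0.73, 0.81, 0.53 and 0.71 in cKO replicates 1 to 5, against 0.57, 0.998, 0.89, 0.64 and 0.58 in WT replicates 1 to 5. Uck2 lay below it on all arrays, with −2.30, −2.29, −2.65, −2.18 and −2.62 in cKO replicates 1 to 5, against −2.42, −2.60, −2.60, −2.59 and −2.27 in WT replicates 1 to 5. Differences were −0.06 (SE 0.09) for Uck1 and 0.09 (SE 0.10) for Uck2. In Uck2, cKO replicates 1, 2 and 4 and WT replicates 1 and 5 formed the upper values.

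The de novo members had slightly lower mean ratios in cKO, with overlapping genotypes. Dhodh encodes dihydroorotate dehydrogenase of the inner mitochondrial membrane, which feeds electrons to the respiratory chain. Its log2 ratios were 0.89, 0.68, 1.03, 0.93 and 1.05 in cKO replicates 1 to 5, against 1.04, 1.06, 1.08, 0.87 and 0.86 in WT replicates 1 to 5. The difference was −0.07 (SE 0.08). The lowest value was that of cKO replicate 2, and with slide as a block, which rests on that mouse, the difference was −0.31 (SE 0.12).

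Umps encodes UMP synthase, which makes UMP from orotate, and had a pair of probes for transcript NM_009471 with unequal differences. The probe that stood for the gene, A_55_P2185273, had log2 ratios of −1.53, −1.53, −1.48, −1.53 and −1.54 in cKO replicates 1 to 5, against −1.62, −1.40, −1.46, −1.52 and −1.46 in WT replicates 1 to 5. The difference was −0.03 (SE 0.05). The other probe, A_52_P197627, had −1.15, −1.02, −1.01, −1.10 and −1.20 in cKO replicates 1 to 5, against −1.06, −0.92, −0.91, −0.71 and −0.94 in WT replicates 1 to 5. Here 3 of 5 cKO values lay below all WT values, and the difference was −0.19 (SE 0.07, limma unadjusted p = 0.0182 over 28682 probes). It did not pass adjustment over all probes. Of those probes 0.0105% passed.

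**Figure D3:**
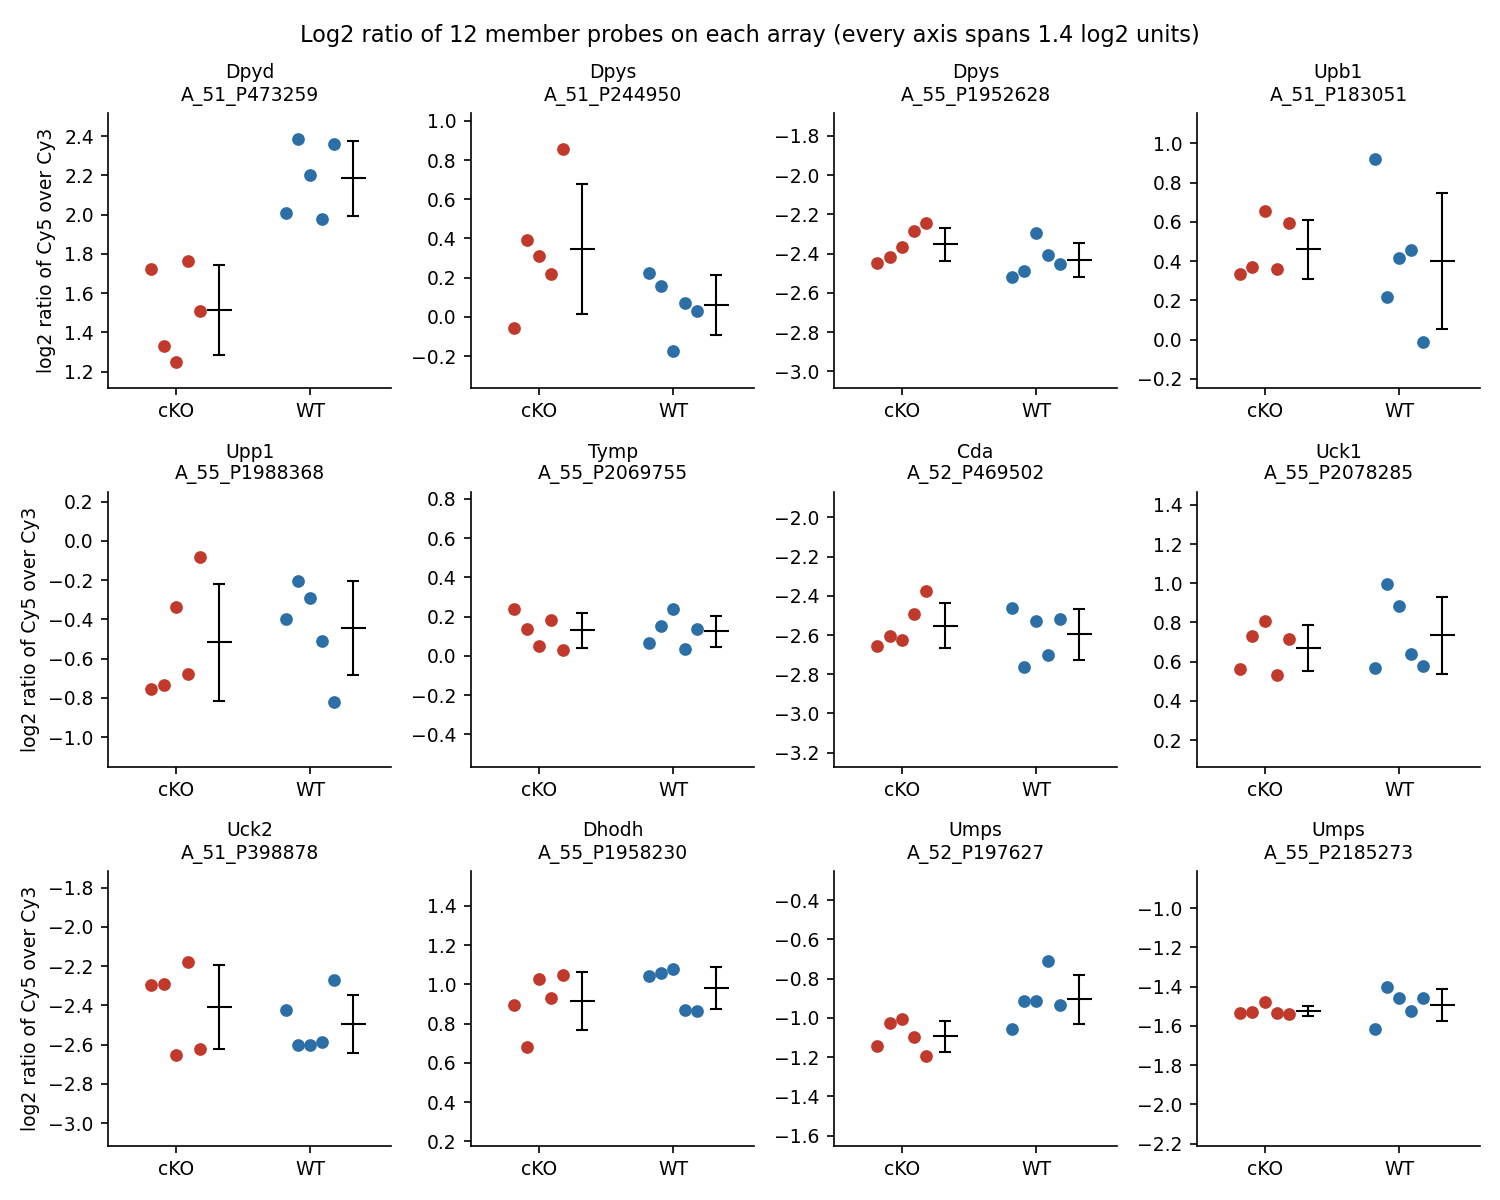
Log2 ratio of Cy5 over Cy3 (vertical axes, each spanning the same width) of the 12 member probes that passed the filter, on 5 cKO arrays (red) and 5 WT arrays (blue), with mean ± SD as bars. Dpyd is the panel in which the genotypes do not overlap; in the other 11 panels they do.

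Of the 10 member genes, none passed the threshold of adjusted p under 0.05 in limma, where 0.00424% of all features passed. At an unadjusted p under 0.05 there was 1 of 10, Dpyd, where 3.86% of all features were called (1.03% lower and 2.83% higher in cKO). The groups did not overlap in 1 of 10 members, again Dpyd, and in 0.776% of all features. All cKO arrays lay below all WT arrays in 0.246%. Since the comparison of genotypes chose Dpyd, nothing is read from these counts. Among the other 9 members, 5 had higher and 4 had lower values in cKO, with a median difference of 0.00 (0.0049), against 0.01 over all features. The widest 95% intervals among them were −0.25 to 0.37 for Upb1 and −0.39 to 0.24 for Upp1, so differences of that size are not bounded more closely by 5 mice a genotype.

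The wider pyrimidine list held 58 genes, of which 56 were tested. In cKO samples 32 had higher and 24 had lower values, where 12920 of all 23574 features were higher and 10654 lower. None passed in limma, and the median difference was 0.00 (0.0046). At an unadjusted p under 0.05 there were 3, with 2 higher and 1, Dpyd, lower, where 2.83% and 1.03% of all features were called in these directions. The count was 11 with array weights, where 2652 features were called, 5 with slide as a random block, where 1891 were called, and 1 with median centring, where 605 were called. The 2 higher genes were Crmp1 (0.18, SE 0.06) and Dpysl4 (0.16, SE 0.07). Both belong to the dihydropyrimidinase-like family, relatives of Dpys in sequence that act on the neuronal cytoskeleton rather than in pyrimidine breakdown. Of its 5 members 4 had higher values, with Dpysl2 at 0.11, Dpysl3 at 0.09 and Dpysl5 at −0.03.

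After Dpyd, the lowest values of the list were those of Nt5e, the ecto-nucleotidase CD73 (−0.12, SE 0.10), and Dtymk, thymidylate kinase (−0.11, SE 0.08). Uap1, which makes UDP-N-acetylglucosamine, had the third highest value (0.12, SE 0.07). Apart from Dpyd, differences in the list ran from −0.12 to 0.18. The 5 de novo genes had a median of −0.03, with Cad, which carries out the opening steps, at −0.02 and the CTP synthase genes Ctps and Ctps2 at 0.12 and −0.10. The 12 salvage genes had a median of 0.01. The 12 kinases and deoxynucleotide enzymes had a median of −0.01, with ribonucleotide reductase genes Rrm1 at −0.01, Rrm2 at 0.05 and Rrm2b at −0.07. All 6 tested nucleoside transporters had higher values, where 12920 of all 23574 features were higher. None had an unadjusted p under 0.05 in limma. Their median was 0.07, and Slc29a3, a lysosomal nucleoside transporter, was at 0.12 (SE 0.06). The 7 nucleotidases had a median of −0.03.

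**Figure D4:**
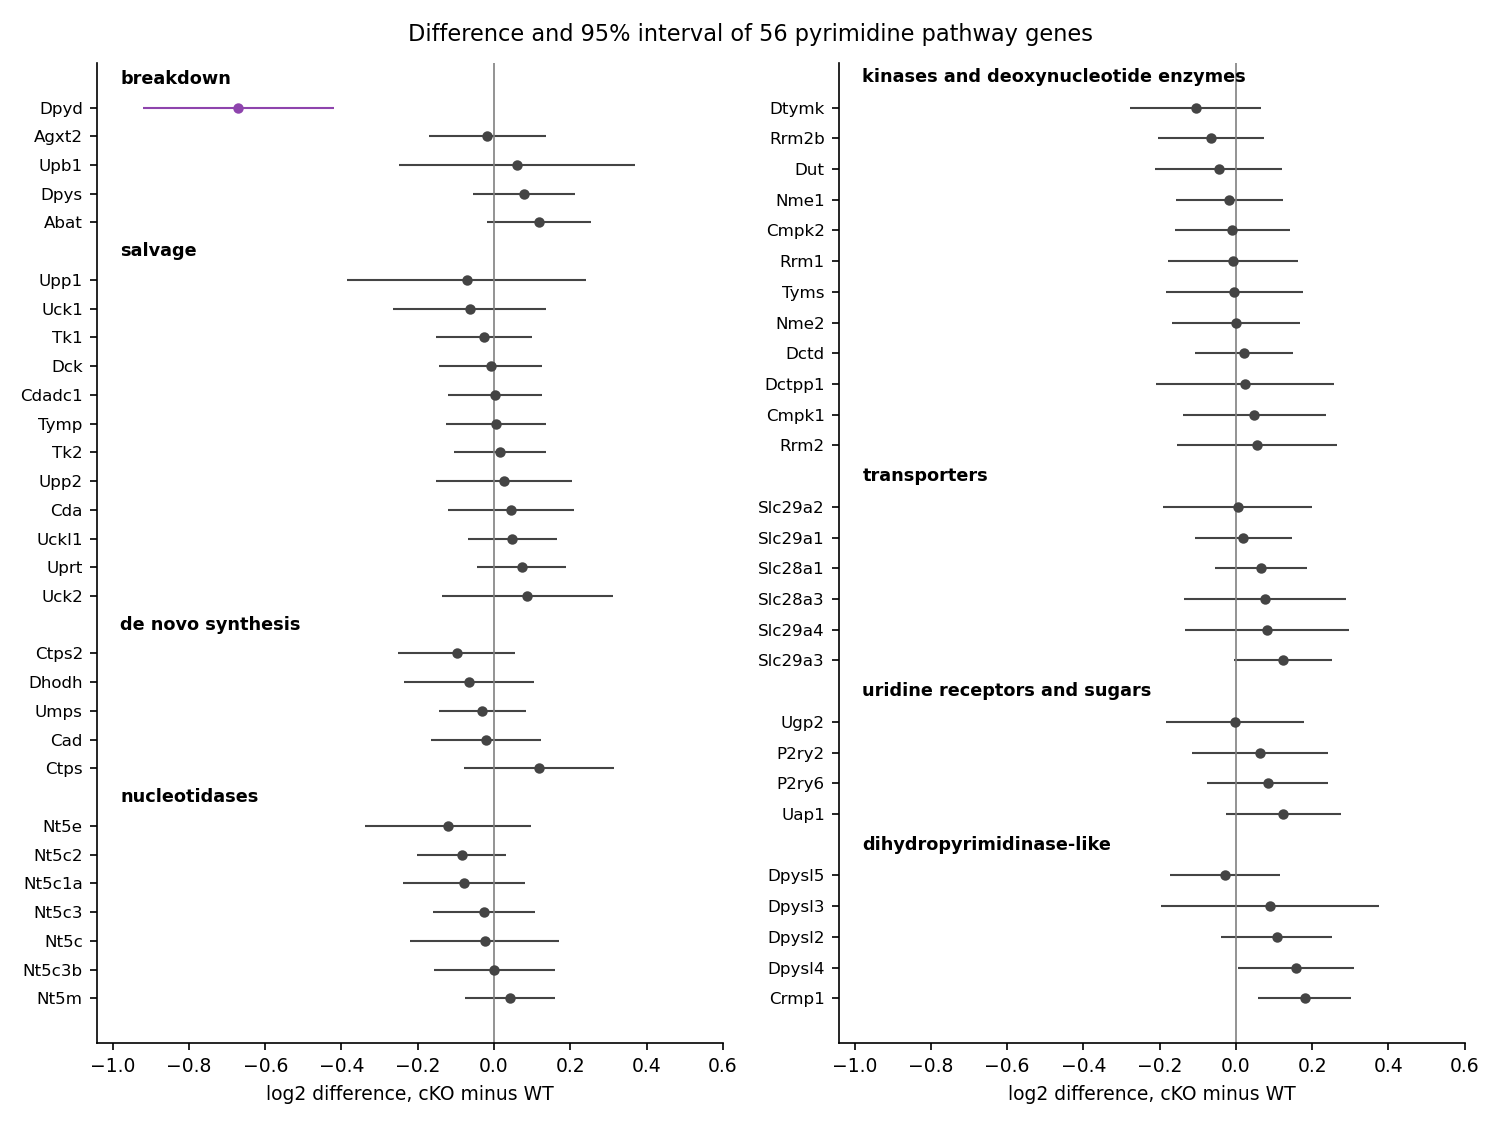
Log2 difference, cKO minus WT (horizontal axis), with its 95% interval for the 56 tested genes of the pyrimidine list, grouped by role. Dpyd (purple) lies at −0.67 and the other genes lie between −0.12 and 0.18.

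The genes beside Dpyd on chromosome 3 were examined next. The 4 nearest protein-coding genes on either side were all tested, and 6 of the 8 had lower and 2 had higher values in cKO, where 10654 of 23574 features were lower. The genes that adjoin Dpyd, Snx7, which encodes a sorting nexin, and Ptbp2, a neuronal regulator of splicing, differed by −0.14 (SE 0.09) and −0.07 (SE 0.05). Rwdd3, next after Ptbp2, differed by −0.25 (SE 0.11, limma unadjusted p = 0.0369) and was the 1 neighbour under 0.05, where 3.86% of all features were called. Its product promotes the attachment of SUMO to proteins. The remaining neighbours were at −0.04 for Palmd, 0.06 for Plppr4, 0.08 for Plppr5, −0.02 for Tlcd4 and −0.05 for Alg14. None passed adjustment over all features.

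Among 2257 named genes whose log ratio had an SD of at least 0.2 over the 10 arrays, the pattern most like that of Dpyd was that of Map3k12 (Pearson r = 0.874), the deleted gene. Both differ between genotypes, which sets much of any such r. The correlation of their deviations from the genotype means was 0.259. The next were Npw, which encodes neuropeptide W (0.861, and 0.767 for the deviations), Itga11, an integrin chain (0.809 and 0.630), Rwdd3 (0.806 and 0.741), Smoc2, a matrix protein (0.805 and 0.776), and Cdh9, a cadherin of hippocampal synapses (0.780 and 0.568). Their differences ran from −0.25 for Rwdd3 to −0.32 for Cdh9. The most opposite patterns were those of Pcp2 (−0.874, and −0.640 for the deviations), Mag, the myelin-associated glycoprotein (−0.846 and −0.569), Ppp1r17 (−0.838 and −0.466) and Rnf152 (−0.835 and −0.691). Pcp2 and Ppp1r17 are best known from cerebellar Purkinje cells. These correlations over 10 arrays describe the samples and were selected as extremes from 2257 genes.

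The other members varied in how they tracked Dpyd. Over the 10 arrays their r with Dpyd lay between −0.435 for Upb1 and 0.410 for Umps. For deviations from the genotype means it lay between −0.668 for Upb1 and 0.668 for Tymp.

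Of 10 lists of cell type and region markers, 3 had list means that were higher in all 5 cKO than in all 5 WT samples, and 7 overlapped. Among all single features the genotypes did not overlap in 0.776%, a share that does not carry over to list means. The lists were chosen with earlier results of these data known, so their counts are given as a description. The choroid plexus list had means of 1.05 to 2.38 in cKO and 0.28 to 1 in WT samples, and all 8 tested members of 9 had higher values. Cldn2 did not pass the filter on dim spots. The oligodendrocyte list had means of 3.03 to 3.16 in cKO and 2.77 to 2.98 in WT samples, with 6 of 8 higher. The endothelial list had means of 2.28 to 2.43 in cKO and 2.14 to 2.24 in WT samples, with 5 of 6 higher. None of these genes passed adjustment in limma, and 6 of 8, 5 of 8 and 4 of 6 had an unadjusted p under 0.05, where 3.86% of all features were called. Of the 7 overlapping lists, meninges and fibroblasts had 3 of 5 such genes. Their median difference was 0.24, against 0.21 for both oligodendrocytes and endothelium. Interneurons had 1 of 5, thalamus had 1 of 4 and the remaining lists had 0.

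Correlations of the list means with Dpyd over the 10 arrays were −0.695 for choroid plexus, −0.829 for oligodendrocytes and −0.768 for endothelium, and those of the deviations from the genotype means were −0.137, −0.322 and −0.052. For the list of excitatory hippocampal neurons, which overlapped between genotypes, r was 0.177 and that of the deviations 0.800. Interneurons, with 5 of 5 genes higher, had an r of −0.686, and −0.092 for the deviations. Meninges and fibroblasts, with 3 of 5 higher, had −0.497 and 0.002, and thalamus, with 4 of 4 higher, had −0.274 and 0.478. For microglia r was −0.380, for astrocytes −0.363 and for striatum −0.030, and for the deviations −0.238, −0.396 and −0.397. All points share the same 10 arrays, their slides and their genotypes. What part the cell makeup of the samples has in the Dpyd difference was not tested.

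**Figure D5:**
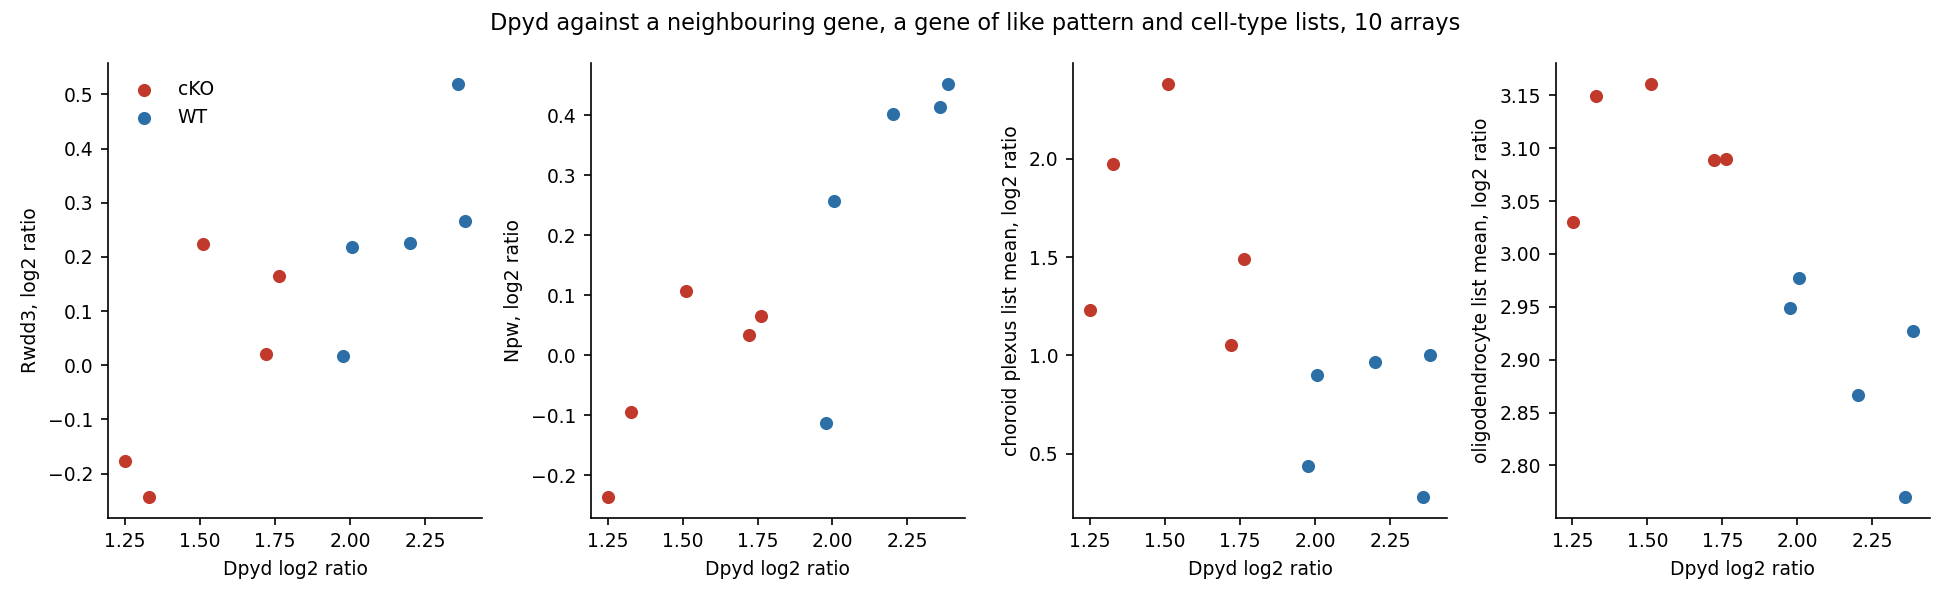
Log2 ratio of Dpyd (horizontal axes) against that of Rwdd3, that of Npw, and the mean log2 ratios of the choroid plexus and oligodendrocyte lists (vertical axes, left to right), for 5 cKO arrays (red) and 5 WT arrays (blue). Over all 10 arrays r was 0.806, 0.861, −0.695 and −0.829, and for deviations from the genotype means 0.741, 0.767, −0.137 and −0.322. Both list means were higher on every cKO array than on every WT array.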

How the data were processed

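Hippocampal RNA of 5 cKO and 5 WT mice was measured on 2-colour arrays, with the sample in Cy5 and a common reference in Cy3, and 750 ng of labelled cRNA per sample per the labels' protocols. The intensity values in the scanner files were made by the authors with Agilent Feature Extraction 11.0.1.1, per the file headers. They are unnormalised median pixel signals of spot and local background. These deposited files also give processed intensities and a log10 ratio. The authors' deposited value table holds log2 values, and the sources used here do not give their normalisation. Its columns correlated with the ratios computed here at 0.99997 or more, so scale and direction are log2 of sample over reference without centring of genes. The other columns used are flags, which per the file headers mark each spot as well above background or non-uniform.

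Spots marked as non-uniform were left out, backgrounds were corrected with normexp (offset 50) and ratios normalised by loess within arrays, with control spots at weight 0, in limma 3.58.1 under R 4.3.3. The plan followed an earlier analysis of these data, in which the effect of leaving out marked spots was already known. Spots of a probe were averaged without outliers. Probes with Cy5 well above background on at least 5 of 10 arrays were kept (28682 probes), and each gene was represented by its probe of highest mean intensity. Names came from probe accessions matched to RefSeq of GRCm38.p6, which named 26581 of 39429 probes. The array headers name build mm9, so no coordinates were joined. Upstream sequences are those of RefSeq, build GRCm38.p6. Genotypes were compared with lmFit and eBayes, two-sided, with Benjamini-Hochberg adjustment over 23574 features. Of the feature values, 135 were missing and left out of the fit.

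Genes are named as follows: every member probe, the genes of the pyrimidine list with an unadjusted p under 0.05 or among the 3 largest differences in each direction, 4 neighbours on each side of Dpyd, and the 6 highest and 4 lowest correlations with Dpyd. Others are named as examples of their group. Members and lists were chosen with earlier results of these data known. The labels do not state outright that each sample is 1 mouse, as it is called here, so p-values measure the spread between these samples, which may be technical. The number of arrays limits the precision. Alternatives covered background correction, normalisation, filter, probe choice, slide, replicate block, array weights and leaving out each mouse.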

Additional observations from a re-analysis of the deposited data

Results flagged for a closer look

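Among 46 sets of 5 arrays checked for a single array apart from the rest, over the member probes, Map3k12, the neighbours of Dpyd and the pyrimidine genes under an unadjusted p of 0.05, 2 had an array whose gap to its nearest neighbour was over 0.71 of the range of its genotype. Chance gives about 5% of such sets, or 2.3 of 46. In the Umps probe A_55_P2185273, cKO replicate 3 had a log2 ratio of −1.48, against −1.54 to −1.53 in the other 4 cKO samples. Its Cy3 signal of 7842 was the lowest of the 10 arrays, and the whole cKO range was small. In Dpysl4, cKO replicate 5 had 5.81, against 5.55 to 5.62 in the other 4 cKO samples, and its Cy5 signal of 10855 was the lowest of the 10 arrays.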

How the results depend on the processing

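The Dpyd difference was below 0 in all 25 alternatives and moved by less than the spread between mice in all but 1. That was the fit with all spots in the background correction, where it was −0.42, and the cause was not tested. The alternatives reuse the arrays that chose Dpyd, so a value below 0 was largely given in advance and is no support. The Dpyd difference ran from −0.73 to −0.60 when single mice were left out. Its place in the order of unadjusted p depended on the setting, from 2 to 1211. No member and no gene of the pyrimidine list passed in any of the 25 alternatives. The number of genes past the threshold was 1, Map3k12. It was 0 with plain background subtraction, when non-uniform spots were kept in the background fit, and with the Cy5 channel alone. There limma gave 897, 860 and 582 features with an unadjusted p under 0.05. Slide 2 alone has 1 cKO array, so its count is left out. The number of genes past the threshold was 2 when probes of a gene were averaged, where Esr1 was added. Without single mice it was between 1 and 2, and the added gene was Pcp2 without cKO replicate 4. At an unadjusted p under 0.05 in limma there was 1 member, against 3 with array weights (Dpyd, Upp1 at −0.26 and Uck2 at 0.22). There were 2 with slide as a block and 0 when non-uniform spots were kept in the background fit. The pyrimidine list had between 1 and 11 over the alternatives, against 3. Of the other members, Upp1, Dhodh and Umps were lower in cKO in all 25 alternatives, Uck1 in 24, Uck2 and Dpys in 1, Cda in 2, Upb1 in 4 and Tymp in 6. For Dpys the difference was 0.25 with the scanner software's processed signals. It was −0.16 when non-uniform spots were kept in the background fit, where that for Cda was −0.14. Median centring moved Tymp to −0.08 and Umps to −0.12. With the probes of a gene averaged, Umps was at −0.11 and Dpys at 0.18. With only probes well above background on all arrays, Dpys was at 0.28. The values of Umps and Dpys thus also depended on the choice of probe.

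With the replicate number as a block the Dpyd difference was −0.67 (SE 0.14) and Map3k12 alone passed. The numbers did not pair the samples: deviations of arrays with the same number correlated at −0.560 to 0.162, and 0 of 10 arrays correlated best with its own number. Dim spots limit the ratios of Dpyd, whose reference signal was near background, and of Dpys and Cda, whose sample signal was low. Upb1 and the Dpys probe A_51_P244950 were dim in both channels.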
